A study of Homo sapiens with 17 samples.

Results

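Tagged H2A.Z.2 was compared with tagged H2A.Z.1 in subconfluent Caco-2/15 cells, using the peak lists of 4 Flag ChIP-seq samples, chosen by their labels, of 17 samples in the series and of 8 with peak lists. Caco-2/15 is a human colon cancer line that acquires features of absorptive enterocytes after confluence. In 1 engineered line a Flag tag had been added by CRISPR-Cas9 to H2AFZ (now H2AZ1, encoding H2A.Z.1), and in the other to H2AFV (now H2AZ2, encoding H2A.Z.2), each heterozygously, so that an untagged copy remained. The sources used here do not say whether each line is a single clone. Each isoform had 2 lists, named Exp1 and Exp2. The 4 lists from the same lines 7 days after confluence were used for comparison. They also entered the choice of gene positions and the fits of gene rank, which took their spread from all 8 lists. Both isoforms were therefore followed through the same Flag antibody, in the same growth state, but in different engineered lines.

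H2A.Z is a variant of histone H2A that replaces it in nucleosomes beside active and poised promoters and at enhancers. It is deposited by the SRCAP and EP400 complexes, and its vertebrate isoforms H2A.Z.1 and H2A.Z.2 come from separate genes and differ by only a few amino acids. Per the series' description, the tag stood in for antibodies that recognise a single isoform. At an expressed promoter, H2A.Z nucleosomes typically flank a gap without nucleosomes on its upstream and downstream side.

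H2A.Z.1 came with 46636 (Exp1) and 66522 (Exp2) intervals, and H2A.Z.2 with 55788 and 30603. To match their lengths, only the 30603 intervals with the largest −log10 p were kept in each. The shortest, H2A.Z.2 Exp2, was thus used whole and reached down to a −log10 p of 5.19, against 11.6, 12.6 and 14.04 for the weakest retained interval of H2A.Z.1 Exp1, H2A.Z.1 Exp2 and H2A.Z.2 Exp1. Median widths after reduction were 746 and 664 bp for H2A.Z.1 and 780 and 474 bp for H2A.Z.2, and H2A.Z.2 Exp2 was the narrowest of the 4. Read depth is unknown from peak lists, so no counting interval can be given, and a gene without a peak may hold signal below the threshold. Interval names in the files record the sequencing run: both Exp2 lists came from a shared run, and the Exp1 lists from a different run for each isoform, so that run and isoform cannot be told apart in Exp1. Nothing in the labels says that Exp1 and Exp2 were separate cultures, so every p below measures only the spread between these lists.

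Most genes that carried 1 isoform carried the other. A gene was counted as occupied where an interval reached the 1 kb on either side of its annotated start of transcription (15842 of the 20037 protein-coding genes) or, where no start was annotated in the sequence table, of 1 of its annotated ends (4195 genes). H2A.Z.1 occupied 12456 and 12521 genes and H2A.Z.2 12184 and 12068. All 4 lists held 11463 genes (57.2%), and none held 6928 (34.6%). The strongest interval at the genes held by all 4 lists had a median percentile of 78.0 and 76.6 in the H2A.Z.1 lists and 75.8 and 77.8 in the H2A.Z.2 lists. A percentile here is the rank of an interval's fold enrichment among the 30603 of its own list.

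The genes of the isoforms themselves were occupied by both. H2AZ1 stood at percentiles 80.7 and 84.8 in the H2A.Z.1 lists and 86.7 and 78.8 in the H2A.Z.2 lists. H2AZ2 stood at 86.0 and 73.5 against 95.4 and 86.0. The values of the isoforms overlapped at H2AZ1, while at H2AZ2 the lower H2A.Z.2 value lay just above the higher H2A.Z.1 value.

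The likeness of lists across isoforms overlapped that between replicates of 1 isoform. The Jaccard index of covered bases (shared bases over all bases covered by either list) was 0.650 between the H2A.Z.1 lists and 0.567 between the H2A.Z.2 lists. Across isoforms it was 0.673 within Exp1, 0.595 within Exp2, and 0.596 and 0.619 for the remaining pairs. By this index the pair most alike was H2A.Z.1 and H2A.Z.2 of Exp1, and the least alike was the pair of H2A.Z.2 replicates. The index is limited by unequal covered length, which was 27.7 Mb for H2A.Z.2 Exp1 and 18.5 Mb for H2A.Z.2 Exp2. Genes with a peak in only 1 list of a pair numbered 861 and 900 between replicates and 784 to 1043 across isoforms. Spearman's rho of fold enrichment over shared genes was 0.695 and 0.704 between replicates and 0.663 to 0.757 across isoforms. By both of these measures the least alike pair was H2A.Z.1 and H2A.Z.2 of Exp2, with 1043 genes and a rho of 0.663. These are correlations across genes, which are not independent replicates, and the pairs share lists. The median distance between matched summits was 56 to 65 bp over the 6 pairs.

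**Figure D1:**
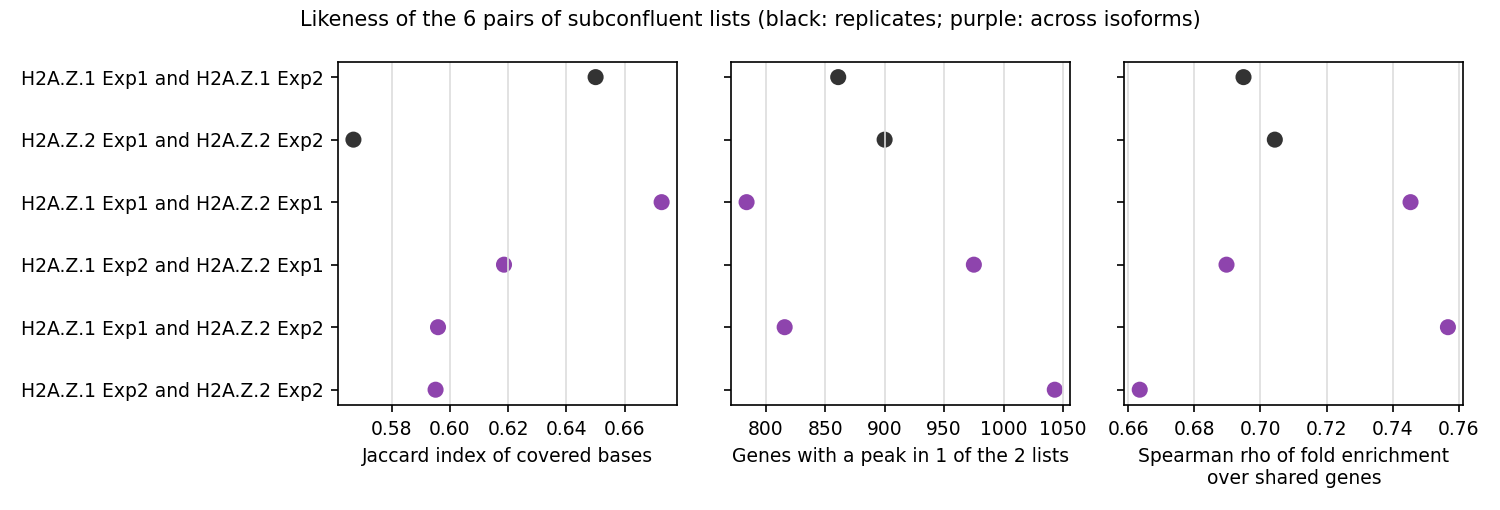
Each point is 1 of the 6 pairs of subconfluent lists, with the Jaccard index of covered bases, the number of genes with a peak in 1 of the 2 lists, and Spearman's rho of fold enrichment over shared genes on the horizontal axes. Replicate pairs (black) lie within or below the range of the pairs across isoforms (purple) on the Jaccard axis, 0.567 and 0.650 against 0.595 to 0.673.

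The isoforms were also alike in the kind of site they occupied. For intervals and regions, a gene end means an annotated start, or either end of a gene without one. Other ends did not count. Intervals within 1 kb of a gene end made up 48.5% and 52.3% of the H2A.Z.1 lists and 47.2% and 53.6% of the H2A.Z.2 lists. The means were 50.4% ± 2.67 and 50.4% ± 4.54 (SD, n = 2). Intervals further inside genes made up 18.6% and 17.3% against 17.2% and 16.9%. Intervals between genes made up 32.9% and 30.4% against 35.6% and 29.5%. Only for the share inside genes did the isoforms not overlap, with a mean difference (H2A.Z.2 minus H2A.Z.1) of -0.889 percentage points (2-sided exact permutation p = 0.333, the smallest that 2 lists against 2 allow). For the share at gene ends the exact permutation p was 1. With whole lists of unequal length, the difference at gene ends was 9.34 percentage points in favour of H2A.Z.2.

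Genes held by both lists of 1 isoform and neither list of the other were few and of low rank. H2A.Z.2 alone was found at 34 genes, 0.17% of all genes, which rest on 32 distinct intervals. H2A.Z.1 alone was found at 129 genes (0.644%), resting on 121 distinct intervals. The lower of a gene's percentiles over the pair of lists holding it had a median of 21.1 for the H2A.Z.2-only and 28.03 for the H2A.Z.1-only genes, and it passed 50 at 1 and 2 genes. Of the 34 H2A.Z.2-only genes, 22 had an interval in both whole H2A.Z.1 lists and 8 in 1, which leaves 4 with none. Of the 129 H2A.Z.1-only genes, 103 had an interval in 1 whole H2A.Z.2 list, in all of them that of Exp1 since that of Exp2 was already whole, and 26 had none.

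The balance between the isoforms turned with the way the lists were matched. With lists reduced to equal covered length, 93 genes were H2A.Z.2-only and 26 H2A.Z.1-only, the opposite order. With whole lists the counts were 10 and 168, and with lists of 15301 intervals they were 75 and 192. Only 1 of the 34 and 5 of the 129 genes recurred with equal covered length, and 0 and 3 with lists of 15301 intervals. Within Exp1 alone, 256 genes had H2A.Z.2 without H2A.Z.1 and 528 the reverse. Within Exp2, whose lists share a sequencing run, the numbers were 295 and 748. Leaving out H2A.Z.1 Exp1, H2A.Z.1 Exp2, H2A.Z.2 Exp1 or H2A.Z.2 Exp2 gave 160, 87, 99 and 125 H2A.Z.2-only and 399, 263, 400 and 324 H2A.Z.1-only genes, since fewer lists then had to fit the pattern.

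**Figure D2:**
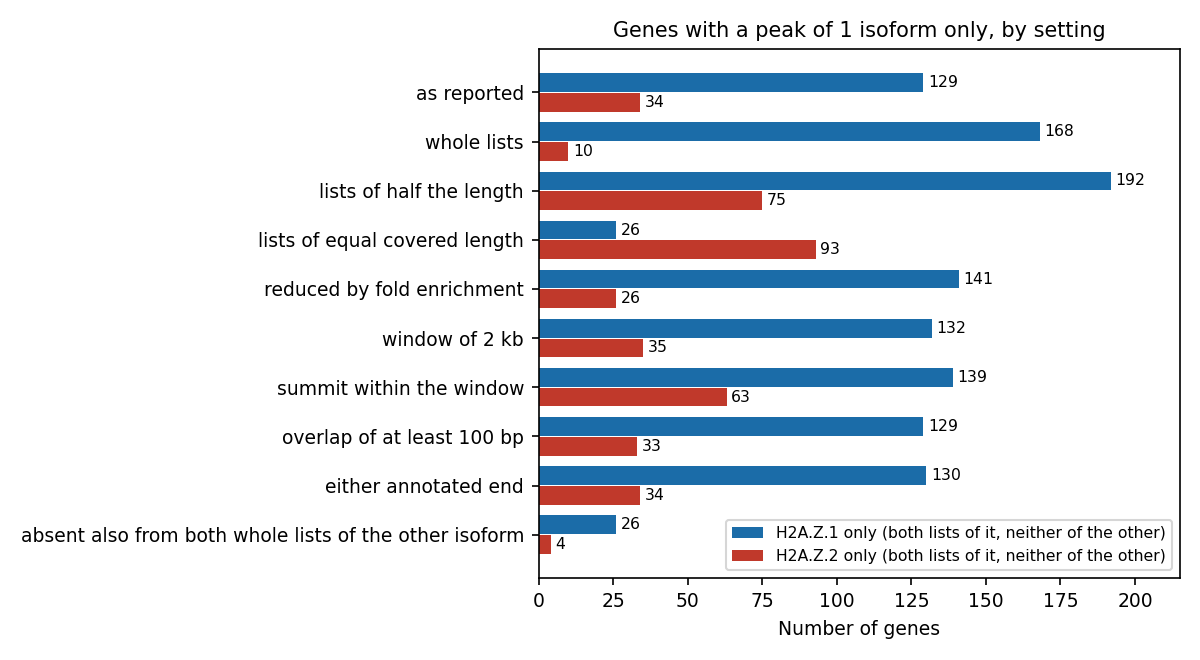
Bars give the number of genes with a peak in both lists of 1 isoform and neither list of the other (blue, H2A.Z.1; red, H2A.Z.2), by how lists were reduced and how a peak was assigned to a gene. H2A.Z.1-only genes outnumber H2A.Z.2-only genes in each setting drawn except lists of equal covered length, where the counts are 26 and 93.

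An annotated start was used for 18 of the 34 H2A.Z.2-only and 102 of the 129 H2A.Z.1-only genes. The others rest on an annotated end that may be either the start or the end of transcription, as do all genes of chromosome 8. Among the genes named here these are LHFPL1, CHD9NB, LOC107987042, KRTAP10-4, SERPINC1, PRDM16, PRR29, LOC124901794, FAM86B1, CD4 and KRT19.

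Among the H2A.Z.2-only genes, LHFPL1 stood highest, at percentiles 64.03 and 62.5 (chrX:112679815-112680418). It lay above every other gene of its group, but both whole H2A.Z.1 lists also held an interval there. ADGRB3, an adhesion G protein-coupled receptor of the brain, followed at 49.2 and 41.3, sharing its intervals with LOC127898563, and 1 whole H2A.Z.1 list held it. Its Exp1 and Exp2 intervals, of 483 and 266 bp, did not overlap each other. SLC12A3, the thiazide-sensitive sodium chloride cotransporter, stood at 36.6 and 47.1, and COX7B, a subunit of cytochrome c oxidase, at 42.8 and 28.1. The others by rank were CHD9NB, LOC107987042, KRTAP10-4, GAL3ST2 and CRLS1, with lower percentiles of 26.1 to 32.0. At CRLS1, which encodes cardiolipin synthase, both H2A.Z.1 lists held an interval overlapping the Exp1 interval of H2A.Z.2 that did not reach the window. For Exp1 the gene thus differs only in where intervals end. The Exp2 interval of H2A.Z.2, of 327 bp, lay apart from that of Exp1 and inside the window, and no retained H2A.Z.1 interval met it.

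No interval at ANKRD1, CCL15, SERPINC1 or CCDC141 appeared in either whole H2A.Z.1 list, and these were the only 4 of the 34 genes for which this held. With whole lists of both isoforms 10 genes were H2A.Z.2-only, of which 4 were among the 34. ANKRD1 encodes an ankyrin repeat protein of muscle that is also a target of YAP, and it stood at percentiles 34.2 and 50.7 (chr10:90920152-90921205). That span joins Exp1 and Exp2 intervals of 421 and 216 bp that did not overlap each other. CCL15, a chemokine, stood at 47.4 and 22.3 (chr17:36001153-36001672). SERPINC1, which encodes antithrombin, stood at 31.6 and 14.9, and CCDC141 at 0.471 and 18.2. All 4 had intervals of modest or low rank in both H2A.Z.2 lists. SERPINC1, among 24 genes of liver plasma proteins, was the only H2A.Z.2-only gene in the 597 entries of the fixed lists. Over all genes the H2A.Z.2-only share was 0.17%.

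Among the H2A.Z.1-only genes, the highest ranks came from the edges of intervals. PYDC1, which encodes a pyrin domain protein, stood at percentiles 74.1 and 94.2, and ULK1, the kinase that starts autophagy, at 68.4 and 69.1. At both, each H2A.Z.2 list held an interval overlapping that of H2A.Z.1 that did not reach the window. The same held in at least 1 H2A.Z.2 list for TMEM187, LOC124901794, PDGFA and PAX6, and for 12 of the 129 genes in all. Counted without such overlaps, 117 H2A.Z.1-only and 33 H2A.Z.2-only genes remained, a rule chosen after the data were seen.

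The next H2A.Z.1-only genes had mid-range ranks. CELF6, an RNA-binding protein, stood at 52.4 and 49.3, and PRDM16, a regulator of brown fat, at 48.4 and 57.6. GNB1, a G protein beta subunit, stood at 46.7 and 46.8, INPP4B, a phosphoinositide phosphatase, at 46.6 and 52.7, and the deacetylase gene HDAC9 at 45.6 and 57.6. ARHGEF19, PRR29, GFRA3 and PTPRU had lower percentiles of 45.6 to 48.0. All of these had an interval in the whole H2A.Z.2 Exp1 list.

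At 25 of the 129 genes the interval of H2A.Z.1 met none in either whole H2A.Z.2 list, and RNF10, MINK1, PDE4DIP, VKORC1L1 and FAM86B1 ranked highest among them. RNF10, a ubiquitin ligase gene, stood at percentiles 42.7 and 49.2 (chr12:120534272-120535137), with intervals shared with LOC128071547. MINK1, a serine/threonine kinase gene, stood at 38.9 and 54.6 (chr17:4832952-4834425). Its Exp1 and Exp2 intervals, of 247 and 747 bp, did not overlap each other within that span. PDE4DIP stood at 65.3 and 37.5, VKORC1L1 at 34.6 and 65.5, and FAM86B1 at 53.8 and 33.2. The VKORC1L1 intervals, of 239 and 268 bp, did not overlap each other either. FAM86B1 and PDE4DIP have near-identical copies elsewhere in the genome, and the sources used here do not say how reads shared between copies were placed.

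The promoters of the 2 highest-ranking genes in each direction whose interval met none in the whole lists of the other isoform, LOC entries aside, are shown because CpG content is described next. Each runs 5′ to 3′ on the gene's strand from 250 bases before the start of transcription into the first 50 transcribed bases, from RefSeq on GRCh38.p14, with every CpG in capitals. ANKRD1 lies on the minus strand at chr10:90921038-90921337 with 5 CpGs, and CCL15 on the minus strand at chr17:36001504-36001803 with 3. RNF10 lies on the plus strand at chr12:120534106-120534405 with 10, and MINK1 on the plus strand at chr17:4833090-4833389 with 45. MINK1 is CpG-rich, while RNF10 is closer to ANKRD1 and CCL15.
ANKRD1: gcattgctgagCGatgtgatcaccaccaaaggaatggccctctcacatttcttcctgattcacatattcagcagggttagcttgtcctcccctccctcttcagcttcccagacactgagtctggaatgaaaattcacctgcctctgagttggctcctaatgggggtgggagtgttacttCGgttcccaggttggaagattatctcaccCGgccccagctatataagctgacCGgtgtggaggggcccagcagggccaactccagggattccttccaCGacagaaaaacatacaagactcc
CCL15: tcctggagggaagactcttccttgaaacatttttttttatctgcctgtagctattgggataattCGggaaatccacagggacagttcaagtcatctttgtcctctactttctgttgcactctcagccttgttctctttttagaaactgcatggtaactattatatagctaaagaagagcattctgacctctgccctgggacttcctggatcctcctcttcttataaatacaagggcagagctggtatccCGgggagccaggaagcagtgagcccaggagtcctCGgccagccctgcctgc
RNF10: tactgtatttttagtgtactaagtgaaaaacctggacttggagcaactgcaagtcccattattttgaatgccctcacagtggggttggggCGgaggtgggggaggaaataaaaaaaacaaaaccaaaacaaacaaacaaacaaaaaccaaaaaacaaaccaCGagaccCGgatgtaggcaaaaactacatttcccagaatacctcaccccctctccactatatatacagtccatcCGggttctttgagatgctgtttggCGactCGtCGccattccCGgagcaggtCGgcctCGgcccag
MINK1: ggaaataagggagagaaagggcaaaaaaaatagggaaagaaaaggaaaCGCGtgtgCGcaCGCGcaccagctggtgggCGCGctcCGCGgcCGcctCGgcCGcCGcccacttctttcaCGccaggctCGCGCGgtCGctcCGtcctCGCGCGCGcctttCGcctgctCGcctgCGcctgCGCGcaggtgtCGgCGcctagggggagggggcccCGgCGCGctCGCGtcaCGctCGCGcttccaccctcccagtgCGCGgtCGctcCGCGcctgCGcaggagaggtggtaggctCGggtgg

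The 18 H2A.Z.2-only genes with an annotated start had a median of 9 CpGs in these 300 bases, and the 102 H2A.Z.1-only genes had 29. The medians were 22 over all 15842 promoters, 27 for genes in all 4 lists and 6 for genes in none. The middle 50% of the H2A.Z.2-only promoters ran from 5.5 to 32.5 CpGs, which overlaps the 18.2 to 36.0 of the H2A.Z.1-only promoters. The letters GGGCGG, searched on both strands, were in 44.4% of the H2A.Z.2-only and 80.4% of the H2A.Z.1-only promoters, against 59.4% of all. TATAAA, searched likewise, was in 16.7% and 7.84%, against 9.65% of all. These are descriptions of small sets whose membership changed with the setting, and a match is not a binding site.

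The H2A.Z.1-only members of the fixed lists and epithelial markers ranged from mid to low rank. They were the 5 genes below, of 597 list entries and 8 epithelial markers, beside 0.644% of all genes. ATOH1, the factor that specifies secretory cells of the gut, stood at percentiles 57.2 and 29.4, and PAX6, a developmental factor, at 25.8 and 56.2. NKD2, an inhibitor of Wnt signalling, stood at 21.3 and 35.5. CD4, a T cell marker, stood at 4.30 and 15.1, and KRT19, an epithelial keratin, at 2.68 and 15.1. PAX6 had an overlapping interval in 1 H2A.Z.2 list, and each of these 5 genes had an interval in 1 whole H2A.Z.2 list.

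After confluence few of these genes kept the pattern. Of the 34 H2A.Z.2-only genes, 1 was again in both H2A.Z.2 lists and neither H2A.Z.1 list, 18 were in at least 1 list of each isoform, and 4 were in none. Of the 129 H2A.Z.1-only genes, 10 kept the pattern, 70 were in at least 1 list of each isoform and 23 were in none. Over all genes, 24 (0.12%) were H2A.Z.2-only and 87 (0.434%) H2A.Z.1-only after confluence. ANKRD1 was in 1 postconfluent list of each isoform, CCL15 in all 4, RNF10 in both lists of H2A.Z.1 and 1 of H2A.Z.2, and HDAC9 in none.

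**Figure D3:**
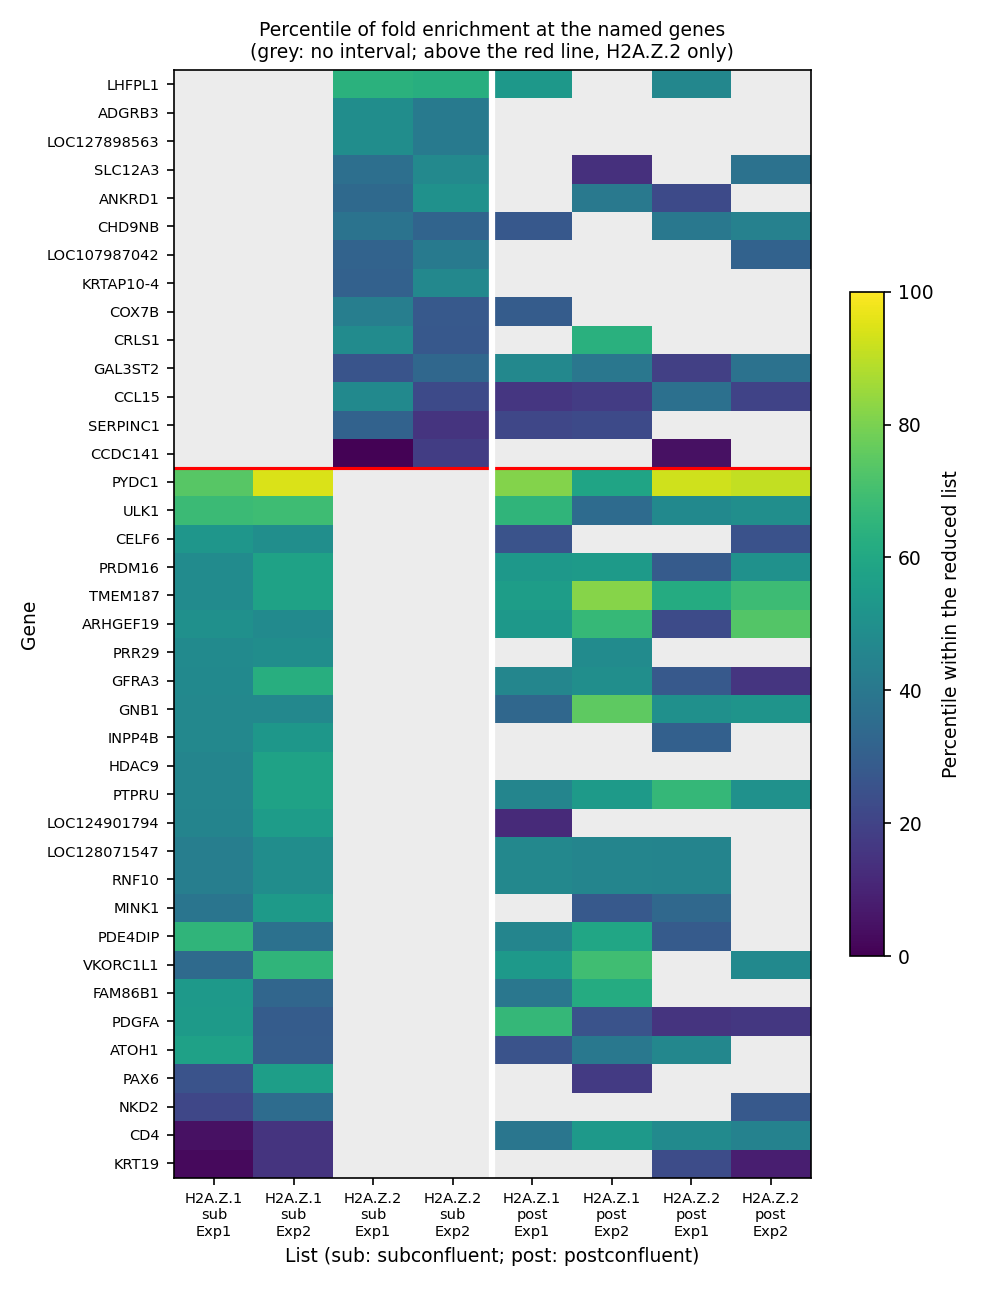
Rows are the named isoform-only genes and columns the 8 lists, and colour gives the percentile of fold enrichment within the reduced list, grey where no interval reached the window. The subconfluent blanks follow from how the genes were chosen, while in the postconfluent columns CCL15 and GNB1, among others, carry both isoforms.

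The same comparison over all intervals, joined into 40436 regions, gave 19606 regions (48.5%) held by all 4 lists, 506 (1.25%) by H2A.Z.2 only and 928 (2.29%) by H2A.Z.1 only. The shared regions had a median width of 1179 bp, against 530 and 557.5 bp. Of the shared regions 61.6% lay at gene ends, against 16.4% of the H2A.Z.2-only and 35.2% of the H2A.Z.1-only regions. Of the H2A.Z.2-only regions 64.03% lay between genes, against 37.8% of the H2A.Z.1-only regions. Only 98 and 192 had no interval in either whole list of the other isoform. With equal covered length the counts were 775 and 72, with whole lists 291 and 2551, and with lists of 15301 intervals 290 and 411.

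The H2A.Z.2-only regions of highest rank away from gene ends lay near RELL1 (chr4:37728869-37729865, percentiles 76.1 and 65.8), WIPF3 (61.6 and 56.4), PARM1 (53.8 and 62.9), HNRNPA3 (58.4 and 52.5) and KRT10 (51.2 and 53.5). The regions near PARM1, HNRNPA3 and KRT10 were in neither whole H2A.Z.1 list. The corresponding H2A.Z.1-only regions lay near DGCR6L (chr22:20299126-20299673, percentiles 62.9 and 72.5), SHISA8 (52.3 and 54.6), TNK2 (51.0 and 50.3), JARID2 (49.4 and 50.6) and KDM6B (48.4 and 51.9). Of these, the regions near TNK2 and KDM6B were in neither whole H2A.Z.2 list. Nearness is by position alone, and the region near JARID2 lay 313293 bp from an end of that gene. After confluence, 6 of the 506 H2A.Z.2-only regions kept the pattern and 23 were H2A.Z.1-only, while 51 of the 928 H2A.Z.1-only regions kept it and 12 were H2A.Z.2-only. Over all 40436 regions, 0.569% were H2A.Z.2-only and 1.98% H2A.Z.1-only after confluence.

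No gene passed the test for a difference in rank between the isoforms. For the 11055 genes occupied in all 8 lists, fold enrichment was ranked within each list, expressed as a normal score in standard deviations and compared with limma. None passed a Benjamini-Hochberg adjusted p of 0.05 (0% called), the smallest adjusted p was 0.890, and 397 genes (3.59%) had an unadjusted p under 0.05. The median absolute difference in score was 0.35, against a median standard error of 0.52. None passed in any of the alternatives run. Differences several times this error did not pass either, that at FOXD2 among them.

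The genes with the smallest p are given as values. FOXD2, a forkhead factor, stood at percentiles 15.8 and 7.30 in the H2A.Z.1 lists and 81.6 and 74.5 in the H2A.Z.2 lists, a difference of 2.59 (SE 0.56, limma adjusted p = 0.890). CDON, a co-receptor for Hedgehog, stood at 66.6 and 68.4 against 99.3 and 97.8. EN2, a homeobox factor, stood at 34.3 and 49.3 against 88.6 and 83.2. At these 3 genes the isoforms did not overlap, which the choice by p favours. LSM1 and BAG4, which share 1 interval and, like RSL1D1 below, rest on an end of unknown direction, stood at 77.4 and 86.4 against 99.3 and 99.4, and SAXO3 at 17.0 and 26.0 against 62.3 and 94.0.

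In the other direction, GABRB1, a GABA receptor subunit, stood at 98.4 and 99.3 in the H2A.Z.1 lists and 73.5 and 69.4 in the H2A.Z.2 lists, a difference of -2.22 (SE 0.52, limma adjusted p = 0.890). SLC41A1, a magnesium transporter, stood at 96.4 and 87.4 against 47.1 and 49.9. SPTB, the beta spectrin of red cells, stood at 84.9 and 91.8 against 21.1 and 45.6. CALM3, a calmodulin gene, stood at 90.9 and 89.1 against 18.3 and 55.9, ATP6V1G1, a proton pump subunit, at 86.8 and 91.6 against 27.2 and 53.2, and RSL1D1 at 87.2 and 79.8 against 27.3 and 43.3. In percentiles, the H2A.Z.2 lists lay further from each other than the H2A.Z.1 lists did at each of these 6 genes except SLC41A1. By the tested score this also failed to hold at GABRB1 and RSL1D1.

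**Figure D4:**
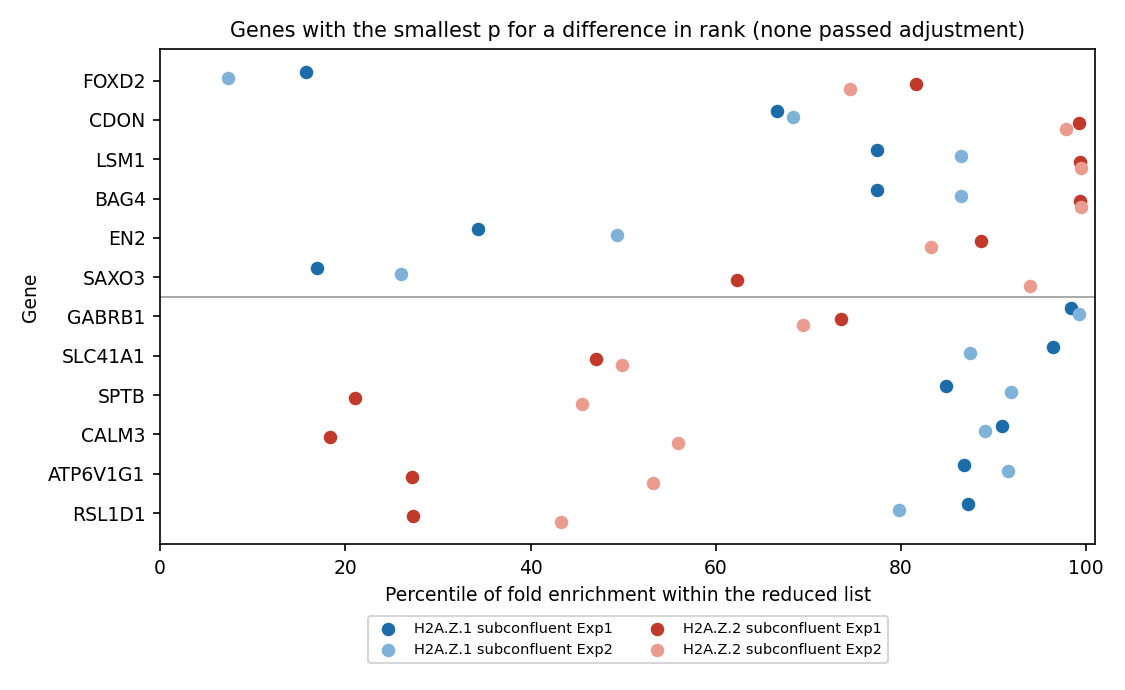
Each row is a gene and each point the percentile of fold enrichment in 1 subconfluent list (blue, H2A.Z.1; red, H2A.Z.2). The isoforms do not overlap at any of the 12 genes, and none passed adjustment. These were chosen from 11055 by p and by moving alike in both experiments, which favours such separation.

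Whether the isoform difference changed with growth state was tested as an interaction, and none of 11055 genes passed (0% called, smallest limma adjusted p = 0.808, 350 genes or 3.17% with an unadjusted p under 0.05). At EN2 the isoforms stood in the opposite order after confluence, at percentiles 82.1 and 78.3 for H2A.Z.1 and 45.1 and 43.7 for H2A.Z.2. Its interaction was 3.41 (SE 0.70, limma adjusted p = 0.808). At FOXD2 the postconfluent values were 26.1 and 74.6 for H2A.Z.1 and 16.8 and 24.1 for H2A.Z.2, and the interaction was 3.56 (SE 0.80, limma adjusted p = 0.808).

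No member of the 22 fixed gene lists or of the epithelial markers passed adjustment. All 27 measured genes for depositing and removing H2A.Z were in all 4 lists, KAT5 at percentiles 99.8 and 99.7 against 98.6 and 100.0. Of the 27, 15 had a higher score for H2A.Z.2, beside 5449 of all 11055 genes ranked. The median difference of the 27 was 0.05, against -0.01 over all 11055 genes. Of the cell cycle and replication genes 33 of 34 were in all 4 lists, of ribosomal protein genes 26 of 29, of the intestinal transcription factors 13 of 25, of brush border genes 13 of 27 and of secretory cell markers 2 of 30, against 57.2% of all genes. The median difference was -0.02 for cell cycle, 0.29 for ribosomal protein, -0.02 for intestinal factor and -0.07 for brush border genes. CENPA, the centromeric histone H3 variant, had the largest difference among histone variant genes, at 36.3 and 46.6 against 88.5 and 76.7, a score difference of 1.81. EPHB3, a Wnt target of crypt cells, had the largest in its list, at 0.18 and 0.0882 against 17.6 and 32.7, a difference of 2.06 (limma adjusted p = 0.890). Both were singled out after their values were seen.

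The markers of the labelled epithelium, of which only KRT8 and CDX2 had an annotated start, were occupied unevenly. CDH1, VIL1 and CDX1 were in all 4 lists, EPCAM, KRT8, KRT18 and CDX2 in some, and none of the 8 was missing from every list. CDH1 stood at 24.8 and 28.6 for H2A.Z.1 and 58.0 and 48.9 for H2A.Z.2. Of the markers of other cells, 9 of 24 for fibroblasts, 6 of 24 for blood cells and 2 of 24 for neurons and muscle were in all 4 lists, beside 57.2% of all genes. Occupancy by H2A.Z is not expression, and this check shows only where peaks stood.

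The 14566 regions held once in each of the 4 lists gave the same picture for rank. None passed adjustment (0% called, smallest limma adjusted p = 0.782, 542 or 3.72% with an unadjusted p under 0.05). The smallest p was at a region by DISP2, at percentiles 55.3 and 79.7 for H2A.Z.1 and 5.001 and 1.13 for H2A.Z.2. At NQO1, a quinone reductase gene, the values were 71.2 and 39.7 against 0.471 and 9.40. Other regions lower in H2A.Z.2 lay near PSAP, PMM1, CAPRIN2 and BHLHE23. Regions higher in H2A.Z.2 lay near PROC (7.48 and 0.170 against 34.4 and 65.0), LSM1, MECOM, GRXCR2, DRD2 and RAB38.

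Width differed at 2 of the 14566 regions (0.0137%), 1 in each direction (0.00687% each), while 728 (5% of the regions) had an unadjusted p under 0.05. A region at an annotated position of HNRNPF, which encodes a splicing factor (chr10:43407416-43409249), measured 1834 and 1672 bp for H2A.Z.1 and 266 and 246 bp for H2A.Z.2. On the log2 scale, with each list centred, the difference was -2.63 (SE 0.26, limma adjusted p = 0.0197). A region 16242 bp from HAAO (chr2:42808825-42809945) measured 263 and 226 bp for H2A.Z.1 and 1121 and 754 bp for H2A.Z.2, a difference of 2.06 (SE 0.24, limma adjusted p = 0.0488). At each, the narrow isoform's Exp1 list, used whole, held 2 intervals where the wide isoform held 1. A replicate block raised the count to 93 regions, 30 wider for H2A.Z.2 and 63 for H2A.Z.1, but experiment numbers were not shown to pair the lists. With whole lists, lists of 15301 intervals, equal covered length or all 8 lists, 0 regions passed, and 0 passed without H2A.Z.2 Exp1 or without H2A.Z.2 Exp2, 1 without H2A.Z.1 Exp2 and 34 without H2A.Z.1 Exp1.

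Summits of both isoforms stood on either side of the start of transcription with a trough over it. Over the 9462 genes with an annotated start and a peak in all 4 lists, the upstream mode lay 250 to 300 bp before the start in every list, and the downstream mode 100 to 200 bp after it. Within 50 bp of the start lay 3.98% and 3.43% of H2A.Z.1 summits and 3.13% and 4.36% of H2A.Z.2 summits. Upstream summits made up 53.2% and 48.6% for H2A.Z.1 and 55.6% and 53.7% for H2A.Z.2. Both H2A.Z.2 lists were thus above both H2A.Z.1 lists, narrowly so for H2A.Z.1 Exp1, and the design allows no exact p below 0.333.

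At single regions no summit difference passed adjustment (0% called, smallest limma adjusted p = 0.130, 636 regions or 4.37% with an unadjusted p under 0.05), and 28 regions passed in a fit over the regions held by all 8 lists. The median absolute difference was 43.0 bp. At ALMS1, the gene of a centrosomal protein, summits lay 637 and 639 bp downstream of the start for H2A.Z.1 and 278 and 274 bp upstream for H2A.Z.2. The difference along the gene was -914 bp (SE 32.2, limma adjusted p = 0.130). At DNAJC13, an endosomal co-chaperone gene, they lay 334 and 332 bp downstream against 445 and 440 bp upstream. At RASL11A they lay 469 and 505 bp downstream against 304 and 257 bp upstream, at STT3A, a subunit of oligosaccharyltransferase, 166 and 112 bp downstream against 695 and 769 bp upstream, and at NQO1 231 and 243 bp downstream against 343 and 356 bp upstream. SPMIP4 showed the opposite order, with H2A.Z.1 at 328 and 251 bp upstream and H2A.Z.2 at 458 and 465 bp downstream. At GDF5, a growth factor gene, both isoforms were upstream, at 753 and 708 bp against 159 and 180 bp. The other regions by p lay at ATP5F1D and near TBX2, FIS1, CFAP126 and SP100. The intervals at ALMS1 covered 1474 and 1412 bp for H2A.Z.1 and 1599 and 1376 bp for H2A.Z.2, so each list spanned both positions and differed in which was the higher.

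**Figure D5:**
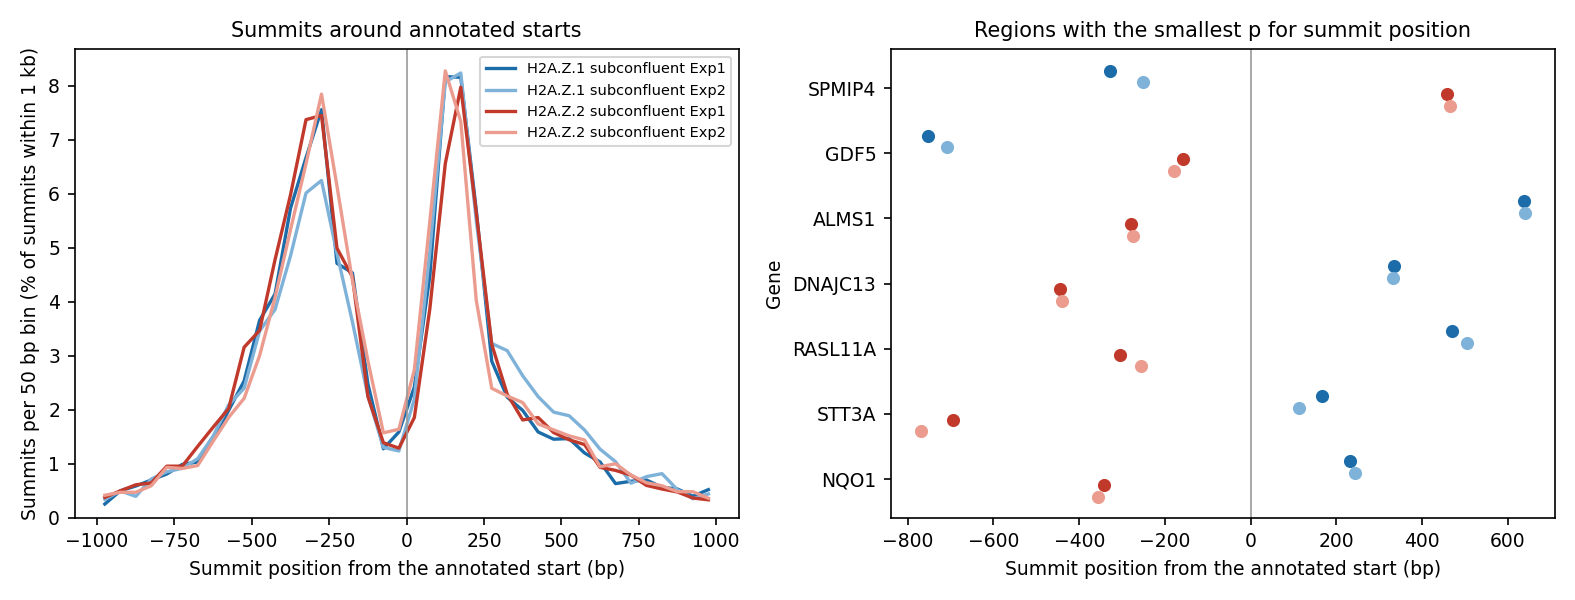
Left, summits per 50 bp bin around annotated starts, as a percentage of those within 1 kb, for each subconfluent list, with modes on both sides of the start in all 4. Right, summit positions from the annotated start in each list at the named genes with the smallest p, where replicates lie close together and isoforms apart at sites chosen by p that did not pass adjustment.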

How the data were processed

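The labels name Flag ChIP-seq of Caco-2/15 cells, with 1 peak list for each sample. The submitters' processing notes name hg38, BWA and deepTools; no source used here names the peak caller, its control or a use of the spike-in. Per the files' columns, the deposited fold enrichment is a ratio (fold), the deposited p and q are −log10 values, and the deposited score is a scaled −log10 q. The authors' values were used only to rank or reduce intervals within a list.

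Lists (chromosomes 1 to 22, X and Y) were reduced to 30603 intervals by −log10 p. Gene positions came from RefSeq tables (GRCh38.p14); of several starts or ends, that with the highest mean percentile over the 8 lists was used, and an overlap of 1 bp within 1 kb counted. Scores, log2 widths and summits entered group-mean fits in limma 3.58.1 under R 4.3.3, tested 2-sided with a Benjamini-Hochberg threshold of 0.05, after tests on simulated data. Python 3.11.15, pandas 2.3.3 and SciPy 1.17.1 did the rest.

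Named genes were, per direction, the 12 with the highest lower percentile, up to 8 more absent from both whole lists of the other isoform, isoform-only members of the fixed lists, 5 regions away from gene ends, and for limma every call up to 10 or else the 6 with the smallest p moving alike in both experiments; H2AZ1 and H2AZ2 were always named. A gene that the rule names is not reported here. The comparison, members and lists were chosen with earlier results of these data known. Alternatives changed the list length, ranking, window, overlap rule, fit and lists included.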

Additional observations from a re-analysis of the deposited data

Results flagged for a closer look

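At 4 genes, 1 of the 34 and 3 of the 129, the lists were isoform-only in opposite directions before and after confluence. These differences were not tested. Over all genes, 0.12% were H2A.Z.2-only and 0.434% H2A.Z.1-only after confluence. All 4 genes rest on an annotated end of unknown direction. SERPINC1, H2A.Z.2-only in subconfluent cells with a lower percentile of 14.9, was in both H2A.Z.1 lists and neither H2A.Z.2 list after confluence. KRT19, H2A.Z.1-only with a lower percentile of 2.68, was in both H2A.Z.2 lists and neither H2A.Z.1 list after confluence. MROH6 and NAPRT, which share an interval and were H2A.Z.1-only with a lower percentile of 34.4, also turned to H2A.Z.2 only. At these 2 genes 1 reduced H2A.Z.2 list of subconfluent cells held an interval that overlapped that of H2A.Z.1 without reaching the window. Both whole H2A.Z.2 lists held an overlapping interval.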

How the results depend on the processing

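Genes of 1 isoform only (34 for H2A.Z.2, 129 for H2A.Z.1) numbered 10 and 168 with whole lists, 75 and 192 with 15301 intervals, 93 and 26 with equal covered length, and 63 and 139 where the summit had to lie in the window. They numbered 4 and 26 when also absent from the other isoform's whole lists, 4 and 25 where intervals overlapped none in those lists, 256 and 528 in Exp1 alone and 295 and 748 in Exp2 alone; the last 3 rules were added after the data were seen. Leaving out 1 list gave 87 to 160 and 263 to 400. Ranking by fold, a window of 2 kb, an overlap of 100 bp and either annotated end stayed within 1.5 times in number. Of the 34 and 129 genes themselves, ranking by fold kept 15 and 77, and the rest of these settings at least 27 and 104. Lists of 15301 intervals kept 0 and 3. Only PYDC1 and LOC124901794 recurred with whole lists, 15301 intervals and equal covered length alike.

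Regions (506 and 928) numbered 291 and 2551 with whole lists, 290 and 411 with 15301 intervals, 775 and 72 with equal covered length, 98 and 192 under strict absence, and 958 to 4065 and 1808 to 4426 with 1 list left out. With whole lists the shares differed by 9.34 (gene ends), -5.24 (inside genes) and -4.09 (between genes) percentage points. Width calls (2) fell to 0 with whole lists, 15301 intervals, equal covered length and 8 lists, and were 0 to 34 with 1 list left out. Region rank calls (0) were 0 to 6 with 1 list left out, and summit calls (0) were 28 over 8 lists. The causes were not tested. With 1 list left out, the lone list is assumed to vary like the other groups.

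Experiment numbers were not shown to pair the lists: deviations of the H2A.Z.1 and H2A.Z.2 subconfluent lists from their means correlated at -0.06 over 11055 gene ranks, and at 0.05 for width and 0.03 for summit over 14566 regions. Over the same genes, subconfluent and postconfluent lists correlated at 0.21 for H2A.Z.1 and 0.15 for H2A.Z.2. With a replicate block, 0 genes and 1 region passed for rank, 93 regions for width, 0 for summit and 0 genes for the interaction. Depth behind the lists is unknown.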
